A study of Caenorhabditis elegans with 21 samples.

Results

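Small RNAs of Caenorhabditis elegans 1-cell embryos were compared between a library of TX189(OMA-1::GFP) embryos and a library of hybrid embryos. These are 2 of the 21 samples of the series and 2 of its 6 small RNA libraries, and all 9 tables of small RNA classes were used. The hybrid embryos had fem-1(hc17ts)/TX189(OMA-1::GFP) mothers, so they carry the same OMA-1::GFP transgene on the maternal side, and CB4856 (Hawaiian) fathers. For the TX189 embryos the labels give the strain alone and name no father, although the titles number the pair as replicates 2 (TX189) and 1 (hybrid) of 1-cell embryos. Both came from worms kept at 24 C, were sorted by flow cytometry at the 1-cell stage, and were made into small RNA libraries after RNA 5′ polyphosphatase treatment, which admits 5′ triphosphate RNAs. The fog-2(q71) sperm, N2 oocyte, CB4856 worm and maternal-strain worm libraries, 1 each, are given as context.

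Several small RNA pathways meet in the worm zygote. 21U-RNAs, the piRNAs of C. elegans, are bound by the Piwi protein PRG-1 in the germline and are inherited through oocyte and sperm. 22G-RNAs are antisense to mRNAs and are made by RNA-dependent RNA polymerases, in part downstream of 26G-RNAs, of which the Argonaute ERGO-1 binds those of oocytes and embryos. miRNAs are cut from hairpins as a pair of arms, of which the major one is usually kept and the other, minor one is lost.

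Each group was 1 library. No test was possible, strain, father, culture and library preparation cannot be told apart, and every interval given is an exact 95% interval for counting error only. The class tables held 15323965 reads in TX189 embryos and 5375449 in hybrid embryos, and the mature miRNA column 472877 and 898729. Part of those miRNA reads are also counted in the class tables. Each column (a class on 1 strand) was scaled to its own sum, so a level is in RPM, reads scaled so that the column has the same sum in every library. A locus was counted as higher or lower where the libraries differed at least 4-fold and the mean of their scaled levels reached 20 reads at the depth of the smaller column, or 10 RPM for mature miRNAs. A locus that reached the minimum through 1 library alone had to differ, so counts over measured loci are descriptions.

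The libraries differed in make-up. Reads antisense to exons made up 81.4% of the class reads in TX189 embryos and 55.5% in hybrid embryos, and 21U-RNAs 1.91% and 0.979%. Small nucleolar RNAs (snoRNAs), which guide rRNA modification, gave 0.0501% of reads in TX189 embryos against 20.2% in hybrid embryos, a share 403-fold lower (394 to 412). tRNA reads were 100-fold lower in TX189 embryos (85.5 to 118.7) and small nuclear RNA reads 26.4-fold lower (24.6 to 28.3). The 21U, snoRNA, tRNA and small nuclear RNA values of this paragraph are of sense reads unless marked antisense. Their antisense reads were 2.88-fold, 48.8-fold, 3.03-fold and 6.88-fold lower in TX189 embryos, in that order. For every 100 class reads there were 3.09 mature miRNA reads in TX189 embryos and 16.7 in hybrid embryos. Scaling to the whole library in place of the column would therefore move every log2 ratio by 0.55 for exon antisense reads, 0.96 for 21U-RNAs, -2.44 for mature miRNAs and -8.65 for snoRNAs. Here and below, the whole library stands for all class reads, which leave out the mature miRNA sense column. Small log2 ratios on this scale, such as that of miR-48-5p below, could change sign if that column were added. The fog-2 sperm library had 0.181% snoRNA reads and the oocyte library 4.57%. Because classes overlap, some reads are counted in more than 1 table: antisense reads of the snoRNA B0334.12, 7.5 in TX189 embryos and 13752.5 in hybrid embryos, matched intron sense reads of B0334.2, 7.5 and 13765.5.

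**Figure D1:**
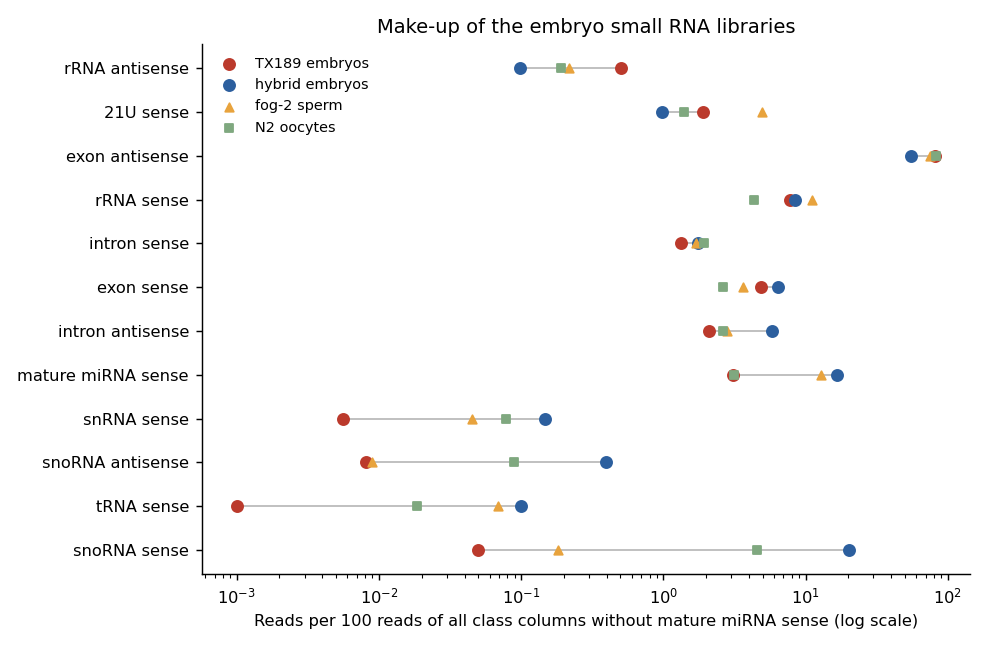
Reads of each class column per 100 reads of all class columns without mature miRNA sense (x axis, log scale) in TX189 embryos, hybrid embryos, fog-2 sperm and N2 oocytes, 1 library each, with a line joining the embryo libraries. Sense snoRNA reads show the widest gap, 0.0501% in TX189 embryos against 20.2% in hybrid embryos.

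Within rRNA, the 5.8S gene rrn-2.1 gave 1.37% of sense reads in TX189 embryos and 42.4% in hybrid embryos, while the 26S gene rrn-3.1 gave 98.6% and 57.5%. The rrn-2.1 share was 0.667% in sperm, 55.4% in oocytes, 43.4% in worms of CB4856 and 45.9% in those of the maternal strain. The TX189 library thus stood nearest to sperm in this ratio and the hybrid library nearest to the worms and oocytes. The ratio of these rRNAs and the snoRNA share differed between the same embryo libraries as the 21U, miRNA and antisense levels below. With 1 library per group it cannot be seen whether these differences go together, and the part of the rRNA and snoRNA differences in the others was not tested.

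Different 21U-RNA loci led in each library. Of 12120 loci, 6357 had a read in an embryo library and 360 reached the minimum. Of those 360, 86 were higher and 171 lower in TX189 embryos, so that 71.4% of them were past 4-fold, 23.9% higher and 47.5% lower. Of the 360, 58 had the same values as another of them in every library, so loci are not all independent. A few loci dominated in TX189 embryos: the 10 most abundant held 51.4% of 21U reads there and 17.1% in hybrid embryos, against 45.8% in sperm and 19.1% in oocytes.

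The locus 21ur-2917 alone held 215842 RPM of 21U reads in TX189 embryos and 361 in hybrid embryos, 598-fold higher (383 to 994), with 63501 in sperm and 291 in oocytes. Next, 21ur-2822 stood at 89750 RPM in TX189 embryos and 798 in hybrid embryos, 112.5-fold higher (83.2 to 156). The locus 21UR-5503_r0_m1_0, the most abundant 21U-RNA of sperm at 193247 RPM, stood at 58524 in TX189 embryos and 665 in hybrid embryos. 21ur-1490 was at 43239 in TX189 embryos and 1197 in hybrid embryos, 36.1-fold higher (28.2 to 47.1). The first 3 were low in oocytes, at 291 to 953 RPM.

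The reverse held for other loci. 21ur-3506 had 0 of 292904 21U reads in TX189 embryos and 25147 RPM in hybrid embryos, at least 2455-fold lower when a floor of 3 reads stands for 0, and it had 0 in sperm and 31642 RPM in oocytes. 21ur-705, the most abundant 21U-RNA of hybrid embryos, had 608 RPM in TX189 embryos and 27616 in hybrid embryos, 45.4-fold lower (38.9 to 53.4). A different pattern was seen at 21UR-9757_r0_m1_0, which had 16514 RPM in TX189 embryos and 228 in hybrid embryos, but only 72.4 in sperm and 635 in oocytes.

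The loci were then grouped by libraries that the embryo ratio does not use. Of 174 loci at least 8-fold higher in sperm than in oocytes, 61 reached the minimum in embryos, and 54 of these were higher and 0 lower in TX189 embryos, with a median log2 ratio of 4.31 against -1.46 over all 360. Of 309 loci at least 8-fold higher in oocytes, 163 reached it, and 2 were higher and 149 lower, with a median of -5.95. Those higher were 21UR-9757_r0_m1_0 and, named after its values were seen, 21UR-14115_r0_m1_0, at 9853 RPM in TX189 embryos and 807 in hybrid embryos. As shares of all 21U reads, the sperm-biased loci held 58.2% in TX189 embryos and 1.40% in hybrid embryos, and the oocyte-biased loci 5.19% and 55.8%. Of the 174 sperm-biased loci, 174 had a read in TX189 embryos and 116 in hybrid embryos, and of the 309 oocyte-biased loci 268 and 309. Over all loci 4444 had a read in TX189 embryos and 4877 in hybrid embryos. Depth differed, with 292904 21U reads in TX189 embryos and 52651 in hybrid embryos.

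**Figure D2:**
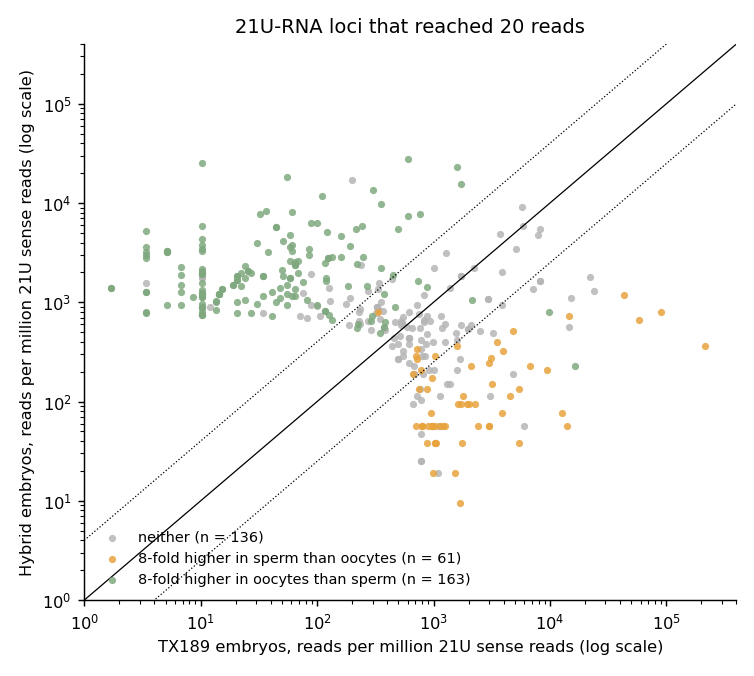
Each point is 1 of the 360 21U loci that reached the minimum, with its level in TX189 embryos (x axis) and hybrid embryos (y axis), in RPM of 21U sense reads on log scales, coloured by 8-fold bias between sperm and oocytes. A library at 0 is drawn at 3 reads, which lies above loci with 1 or 2, and dotted lines mark 4-fold. Sperm-biased loci lie to the lower right and oocyte-biased loci to the upper left.

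Across these 360 loci, Spearman's rho of levels was -0.54 between TX189 and hybrid embryos, 0.86 between TX189 embryos and sperm, and 0.90 between hybrid embryos and oocytes. These are descriptions across loci, which share libraries, depth and the fixed sum of each column. The minimum was on the mean of the embryo libraries, so a locus low in either had to be high in the other. That choice of loci can itself lower the rho between TX189 and hybrid embryos, by an amount that was not tested.

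Small RNAs antisense to exons, mostly a 22G-RNA class in worms but not split by length in these tables, differed less. Of 7406 genes that reached the minimum, 15.3% were past 4-fold: 521 (7.03%) were higher and 614 (8.29%) lower in TX189 embryos, and the median log2 ratio was -0.29. Abundant targets ranged from close levels to large gaps. Antisense reads of got-1.2, an aspartate aminotransferase gene, were at 7877 RPM in TX189 embryos and 7475 in hybrid embryos, and those of F02C12.3 at 7621 and 9444. The linker histone gene his-24 was at 11176 in TX189 embryos and 3868 in hybrid embryos, 2.89-fold higher (2.83 to 2.94). The abundant features E01G4.5 and RIT5M.1045, given below, were far lower in TX189 embryos.

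Antisense RNAs of oocyte and 1-cell embryo genes were close in level. Of 51 listed genes 46 reached the minimum, and 1 was higher and 0 lower in TX189 embryos, where 7.03% of all genes were higher and 8.29% lower. The median log2 ratio of the list was -0.01 against -0.29 for all genes. That list median turned to 0.54 per read of the whole library and to 0.28 with the median of all genes set to 0. The list summed to 6256 RPM in TX189 embryos and 6857 in hybrid embryos. For oma-1, a zinc-finger gene of oocyte maturation and the source of the transgene in these strains, the levels were 115.1 in TX189 embryos and 115.2 in hybrid embryos, and for the transcription factor gene skn-1 they were 121 and 122. The exception was mex-1, a zinc-finger gene of embryonic fate, at 364 in TX189 embryos and 75.9 in hybrid embryos, 4.79-fold higher (4.18 to 5.49). The polarity gene par-2 lay on the other side, at 392 in TX189 embryos and 924 in hybrid embryos, a 2.36-fold difference below the limit.

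Targets of the ERGO-1 26G-RNA pathway stood apart from those genes. Of 26 listed targets, 25 had a row and 20 reached the minimum, and 0 were higher and 17 lower in TX189 embryos, where 8.29% of all genes were lower, and the median log2 ratio was -5.56. Together the targets had 3139 RPM of antisense reads in TX189 embryos and 49414 in hybrid embryos, 15.7-fold lower. The same sum was 626 in sperm, 4727 in oocytes, 30655 in worms of CB4856 and 73443 in those of the maternal strain. The TX189 level thus lay between sperm and oocytes, and the hybrid level lay between the worm libraries.

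E01G4.5 had the highest level of these targets in hybrid embryos, with 233 RPM in TX189 embryos and 13998 in hybrid embryos, 60.02-fold lower (57.8 to 62.3). F55C9.3 had 127 in TX189 embryos and 3565 in hybrid embryos, and W04B5.2 had 33.2 and 3007. E01G4.7 had 199 in TX189 embryos and 11088 in hybrid embryos, and F39E9.7 had 201 and 7997. K02E2.6 had 11.3 in TX189 embryos and 638 in hybrid embryos, 56.5-fold lower (47.6 to 67.5). C40A11.10 had the largest ratio of those given here, with 17.4 in TX189 embryos and 2552 in hybrid embryos, 147-fold lower (129 to 170). The smallest past the limit was T05E12.8, at 80.5 in TX189 embryos and 751 in hybrid embryos.

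The 3 measured targets short of 4-fold, named after their values were seen, were W05H12.2 at 229 in TX189 embryos and 495 in hybrid embryos, H16D19.4 at 260 and 294, and the F-box gene fbxb-97 at 1666 and 1080. fbxb-97 had 378 RPM in maternal-strain worms and no reads in those of CB4856. E01G4.5 was also low in CB4856 worms, at 11.8 RPM against 2096 in maternal-strain worms. The unnamed feature RIT5M.1045 showed a like pattern over libraries, at 714 in TX189 embryos, 19484 in hybrid embryos, 59.98 in worms of CB4856 and 13776 in those of the maternal strain.

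**Figure D3:**
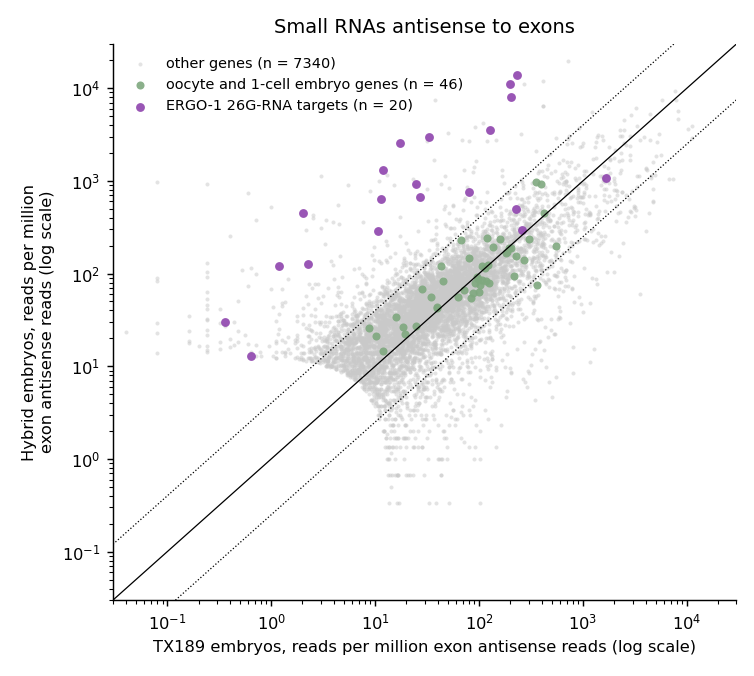
Each point is 1 of the 7406 genes that reached the minimum, with its antisense small RNA level in TX189 embryos (x axis) and hybrid embryos (y axis), in RPM of exon antisense reads on log scales. ERGO-1 targets (20) lie above the upper 4-fold line in 17 cases, while the 46 oocyte and 1-cell embryo genes lie along the diagonal, with mex-1 past 4-fold.

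Genes of the small RNA machinery are themselves targets. Of 55 listed, 49 had a row and 43 reached the minimum, and 2 were higher and 2 lower in TX189 embryos, where 7.03% of all genes were higher and 8.29% lower. Antisense reads of prg-1, which encodes the 21U-RNA-binding Piwi protein, were at 2813 RPM in TX189 embryos and 472 in hybrid embryos, 5.95-fold higher (5.65 to 6.28), with 1616 in sperm and 399 in oocytes. Those of glh-1, a germ granule helicase gene, were at 1242 in TX189 embryos and 220 in hybrid embryos, with 1570 in sperm and 228 in oocytes. The RNA-dependent RNA polymerase family gene rrf-2 was at 60.3 in TX189 embryos and 391 in hybrid embryos, and the helicase gene mut-14 at 25.2 and 104.

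The other lists are set beside the 15.3% of all genes past 4-fold. Of 58 ribosomal protein genes at the minimum, 1 was higher (rpl-31, 28.3 in TX189 embryos and 6.70 in hybrid embryos) and 6 were lower, among them rps-23 at 2.48 and 23.8 and rpl-3 at 13.4 and 56.6, with a list median of -0.42 that turned to 0.13 per read of the whole library. Of 8 replication-dependent histone genes at the minimum, near-identical copies whose reads can be shared, his-68 was higher, at 79.98 in TX189 embryos and 1.34 in hybrid embryos, and his-31 was lower, at 2.32 and 12.4. The median log2 ratio of the 8 was 0.62 against -0.29 for all genes. All 64 histone genes with a row summed to 11528 RPM in TX189 embryos and 4235 in hybrid embryos. Of 3 muscle genes at the minimum the tropomyosin gene lev-11 was lower, at 4.97 in TX189 embryos and 31.5 in hybrid embryos, and of 2 such cuticle genes the collagen gene dpy-17 was higher, at 184 and 5.36. Of 8 transposon-defence and strain-difference genes at the minimum 0 were past 4-fold in either direction.

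Antisense reads of sperm marker genes were few. Of 30 major sperm protein genes with a row 0 reached the minimum, and 25 had no read in TX189 embryos and 29 none in hybrid embryos. The list summed to 0.721 RPM in TX189 embryos and 0.335 in hybrid embryos. It was low in sperm too, where 19 of these genes had no read and the sum was 13.6 RPM. The worm sums were 83.6 RPM for CB4856 and 12.6 RPM for the maternal strain. Of 36 sperm-function genes with a row 4 reached the minimum and 0 were past 4-fold, where 15.3% of all genes were. Their sums were 219 in TX189 embryos and 233 in hybrid embryos, against 783 in sperm. The worm sums were 8176 for CB4856 and 893 for the maternal strain. Vitellogenin and intestine genes had 0 members at the minimum, with sums of at most 9.14 RPM in TX189 embryos and 16.1 in hybrid embryos.

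The extremes of the whole column were other genes. F54E4.2 had 1 antisense read in TX189 embryos and 983 RPM in hybrid embryos, with 0 in sperm and 550 in oocytes. F49F1.5 had 0 reads in TX189 embryos and 917 RPM in hybrid embryos, at least 3814-fold lower, with 25.6 in worms of CB4856 and 9354 in those of the maternal strain. F40H3.6 had 0.601 in TX189 embryos and 739 in hybrid embryos. The synaptotagmin gene snt-5 had 0.401 in TX189 embryos and 253 in hybrid embryos, 632-fold lower (270 to 1952). On the other side, Y53G8AL.4 had 102 RPM in TX189 embryos and 1 read in hybrid embryos, a ratio of 303 (54.3 to 11982). W08E12.8 had 1166 in TX189 embryos and 11.05 in hybrid embryos, and rgs-4, a regulator of G protein signalling, had 505 and 4.69. Neither gene was that high in sperm (67.1 and 77.2) or oocytes (40.2 and 201).

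Genes were grouped by sperm or oocyte bias as for 21U-RNAs, beside 7.03% of all genes higher and 8.29% lower in TX189 embryos. Of 166 measured genes whose antisense reads were at least 8-fold higher in sperm than in oocytes, 81 were higher and 2 lower in TX189 embryos, with a median log2 ratio of 1.96. Of 1476 genes biased to oocytes, 30 were higher and 318 lower, with a median of -1.10. Oocyte-biased genes held 11.2% of antisense reads in TX189 embryos and 26.04% in hybrid embryos. Sperm-biased genes held 2.53% in TX189 embryos and 0.883% in hybrid embryos, against 15.6% in sperm. Over the 7406 genes at the minimum, Spearman's rho of TX189 embryos was 0.745 with sperm and 0.758 with oocytes. That of hybrid embryos was 0.531 with sperm and 0.859 with oocytes.

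The parents of the hybrid differ in strain, so loci that differ between the worm libraries were set out in the same way, beside the same 7.03% and 8.29% of all genes. Of 155 measured genes at least 8-fold higher in CB4856 worms than in maternal-strain worms, 45 were higher and 18 lower in TX189 embryos, with a median log2 ratio of 0.87. Of 43 biased to maternal-strain worms, 4 were higher and 16 lower in TX189 embryos, with a median of -0.93. Most measured CB4856-biased genes thus had the higher level in TX189 embryos within the column. The worm libraries also differ in the fem-1(hc17ts) genotype, and the part of the father's strain was not tested. These sets overlap the gamete-biased ones. Of the 155, 27 were also sperm-biased and 3 oocyte-biased, and of the 43, 1 was sperm-biased and 14 oocyte-biased.

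Mature miRNAs were dominated by few species in both libraries, and by fewer in TX189 embryos: the 5 most abundant held 80.03% of miRNA reads in TX189 embryos and 56.1% in hybrid embryos, against 90.2% in sperm and 75.2% in oocytes. Of 345 mature miRNAs, 157 had a read in TX189 embryos and 257 in hybrid embryos. Of 175 at the minimum, 73.7% were past 4-fold: 22 (12.6%) were higher and 107 (61.1%) lower in TX189 embryos, with a median log2 ratio of -2.68.

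Of the 10 most abundant, 8 were within 4-fold within the column, and the 5 highest in TX189 embryos, higher there per miRNA read, were lower there per read of the whole library. miR-58-3p, a major miRNA of worm tissues, was at 204529 RPM in TX189 embryos and 114810 RPM in hybrid embryos, 1.78-fold higher (1.77 to 1.80), with 704138 RPM in sperm and 11454 RPM in oocytes. miR-72-5p was at 190096 RPM in TX189 embryos and 132142 RPM in hybrid embryos, with the opposite gametic order, 2761.2 RPM in sperm and 296081 RPM in oocytes. miR-228-5p was at 156239 RPM in TX189 embryos and 119701 RPM in hybrid embryos, and miR-61-3p at 89488 and 44810 RPM. miR-57-5p was the exception, at 1546 RPM in TX189 embryos and 122739 RPM in hybrid embryos, 79.4-fold lower (73.8 to 85.5), with 1976 RPM in sperm and 12657 RPM in oocytes. The TX189 level of miR-57-5p was near that of sperm, and the hybrid level was above all other libraries.

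The miR-35 family, which is essential for embryonic development and is made in oocytes and embryos, had like totals per miRNA read, 207668 RPM in TX189 embryos and 218046 RPM in hybrid embryos, against 1555 RPM in sperm and 283992 RPM in oocytes. Its members were not alike. miR-35-3p was at 159909 RPM in TX189 embryos and 71655 RPM in hybrid embryos, 2.23-fold higher (2.21 to 2.26), and miR-42-3p at 2709 and 816 RPM, although per read of the whole library both were lower there, with log2 ratios of -1.28 for miR-35-3p and -0.71 for miR-42-3p. miR-40-3p was lower, at 4546 RPM in TX189 embryos and 38251 RPM in hybrid embryos, 8.41-fold (8.06 to 8.80), as was miR-36-3p, at 2757 and 17098 RPM, whose log2 ratio turned to 0.05 with the miRNA median set to 0. Reads of miR-35 to miR-41 can be shared between members, and 8 of the 16 arms of the family were past 4-fold lower and 0 higher, where 61.1% of all measured miRNAs were lower, with a median log2 ratio of -1.98 that turned to 0.70 with the miRNA median set to 0. The same reads recur in the intron antisense column at Y62F5A.9, a gene whose introns hold these hairpins in the WBcel235 assembly, with 96827.5 reads in TX189 embryos and 197845.5 in hybrid embryos.

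The miR-51 family, another embryonic family, summed to 27723 RPM in TX189 embryos and 48385 RPM in hybrid embryos, and 0 of its 11 arms at the minimum were higher and 6 lower, where 61.1% of all measured miRNAs were lower. Its member miR-51-5p was at 16526 RPM in TX189 embryos and 18783 RPM in hybrid embryos, and miR-54-5p at 6665 and 9541 RPM. Reads of the hairpins miR-54 to miR-56 also recur at the introns of F09A5.3, at 16379 RPM of intron antisense reads in TX189 embryos and 70334 in hybrid embryos.

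The let-7 family, timing regulators of larval development, was low but higher in TX189 embryos. The family summed to 5775 RPM in TX189 embryos and 243 RPM in hybrid embryos, against 105178 RPM in sperm and 2080 RPM in oocytes. The 4 arms at the minimum were past 4-fold higher, where 12.6% of all measured miRNAs were higher. Per read of the whole library, however, miR-48-5p turned to a log2 ratio of -0.13 and let-7-5p fell short of 4-fold, at 1.59. miR-84-5p was at 4293 RPM in TX189 embryos and 15.6 RPM in hybrid embryos, 276-fold higher (164 to 505), with 74622 RPM in sperm. let-7-5p was at 453 RPM in TX189 embryos and 27.8 RPM in hybrid embryos, miR-48-5p at 890 and 180 RPM, and miR-241-5p at 127 and 5.56 RPM. lin-4, another larval timing miRNA, was at 4.23 RPM in TX189 embryos and 2.23 RPM in hybrid embryos, 2 reads in each.

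A wider list of miRNAs named for tissues of larvae and adults takes in the let-7 family and lin-4. Of 19 arms at the minimum, 6 were higher and 9 lower, beside 12.6% and 61.1% of all measured miRNAs. The 4 let-7 family arms were among the 6 higher, and the list median of -1.81 changed sign with the minimum RPM. The muscle miRNA miR-1-3p was at 5604 RPM in TX189 embryos and 942 RPM in hybrid embryos, 5.95-fold higher (5.50 to 6.43) per miRNA read but at a log2 ratio of 0.13 per read of the whole library, with 19895 RPM in sperm. miR-60-3p, an intestinal miRNA, had 1 read in TX189 embryos, 2.11 RPM, and 2752 RPM in hybrid embryos, a ratio of 1301 (233 to 51415), with 0.817 RPM in sperm and 282 RPM in oocytes.

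The miRNAs with the widest ratios are given with their levels in the gametes. miR-244-5p had 0 reads in TX189 embryos and 8193 RPM in hybrid embryos, at least 1291-fold lower, with 2.45 RPM in sperm and 341 RPM in oocytes. miR-236-3p was at 6.34 RPM in TX189 embryos and 15313 RPM in hybrid embryos, with 8.98 RPM in sperm and 772 RPM in oocytes. miR-1819-3p was at 463 RPM in TX189 embryos and 0 in hybrid embryos, at least 138.7-fold higher, with 7743 RPM in sperm and 0 in oocytes. miR-78 was at 3790 RPM in TX189 embryos and 13.4 RPM in hybrid embryos, and miR-796 at 1430 and 5.56 RPM. miR-253-3p was higher in TX189 embryos than in any other library, at 24159 RPM there and 641 RPM in hybrid embryos, with 417 RPM in sperm and 1841 RPM in oocytes.

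**Figure D4:**
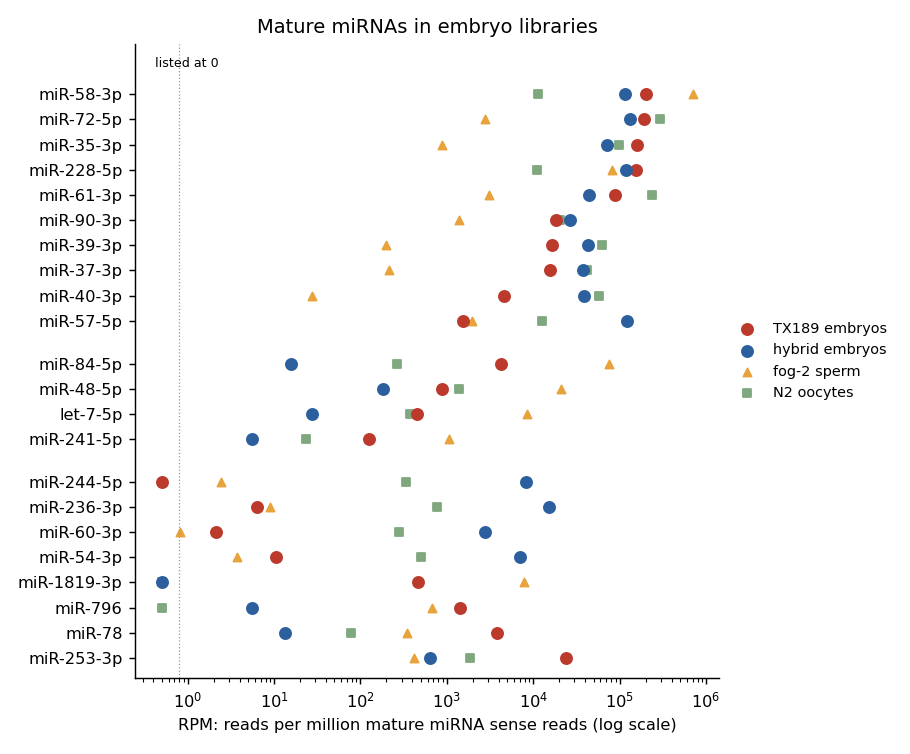
RPM (x axis, log scale) of the 10 most abundant mature miRNAs, the 4 let-7 family arms at the minimum and 8 of the farthest miRNAs, in TX189 embryos, hybrid embryos, fog-2 sperm and N2 oocytes, 1 library each; values of 0 stand left of the dotted line. The upper block lies close between embryo libraries except miR-57-5p and miR-40-3p, and the lower blocks lie 4-fold to over 1000-fold apart.

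The arms of a hairpin allow a comparison that does not depend on scaling. This comparison was chosen after seeing the data. Of 130 hairpins with both arms in the table, 39 had at least 50 reads in each embryo library, and the minor arm was the one with the lower mean in the other 4 libraries. The minor arm's share of its hairpin was lower in TX189 embryos for 36 of the 39 and higher for 3, and its median was 0.0697% in TX189 embryos and 4.09% in hybrid embryos. The median was 0.0358% in sperm, 1.55% in oocytes, 0.436% in worms of CB4856 and 0.373% in those of the maternal strain. In 13 hairpins no minor-arm read was found in TX189 embryos, against 0 in hybrid embryos.

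For the muscle miRNA hairpin miR-1, the minor arm held 0.0377% of 2651 reads in TX189 embryos and 48.2% of 1635 reads in hybrid embryos. For miR-54 it held 0.158% in TX189 embryos and 42.6% in hybrid embryos, and for miR-39 0.621% and 8.47%. The abundant miR-35 hairpin had 0 minor-arm reads among 75617.5 in TX189 embryos and 0.610% in hybrid embryos. The 3 hairpins in the other direction were miR-57, at 0.137% in TX189 embryos and 0.0643% in hybrid embryos, miR-73, at 1.84% and 0.265%, and miR-86, at 94.6% and 44.9%. Of 58 minor arms at the minimum, 1 was at least 4-fold higher and 48 lower in TX189 embryos, beside 14 and 44 of 89 major arms.

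**Figure D5:**
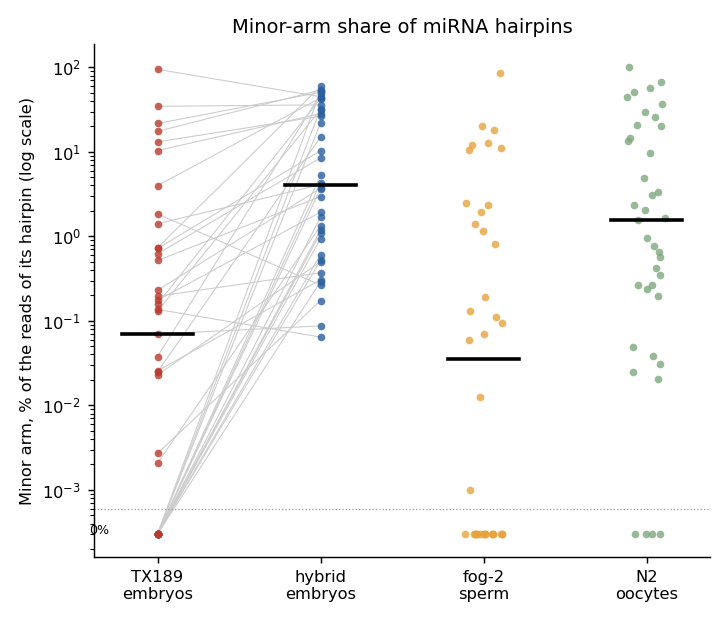
Minor-arm share of each of 39 miRNA hairpins, in percent of its reads on a log scale (y axis; points under the dotted line are shares of 0), in TX189 embryos, hybrid embryos, fog-2 sperm and N2 oocytes, with black bars at the medians and lines joining the embryo libraries. The medians are 0.0697% in TX189 embryos and 4.09% in hybrid embryos.

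Among snoRNAs the order of loci differed as it did for 21U-RNAs. Of 38 snoRNAs at the minimum, 65.8% were past 4-fold within the column, 12 (31.6%) higher and 13 (34.2%) lower in TX189 embryos. These ratios are relative to a class whose share was 403-fold lower in TX189 embryos, and per read of the whole library 0 were higher and 37 lower. C51F7.3 held 36.6% of snoRNA reads in TX189 embryos and 1.11% in hybrid embryos, with 21.3% in sperm and 0.710% in oocytes, although per read of the whole library it too was lower in TX189 embryos. T19B4.8 held 3.998% in TX189 embryos and 0.0472% in hybrid embryos and R166.7 held 1.59% and 0.0125%, and both likewise turned to lower per read of the whole library. F54C9.12 had 0 reads in TX189 embryos and 2.18% in hybrid embryos. ZK265.10 held 20.6% in TX189 embryos and 41.6% in hybrid embryos, with 23.6% in sperm and 48.97% in oocytes. Of 9 measured snoRNAs biased at least 8-fold to sperm, 9 were higher within the column, and of 7 biased to oocytes, 6 were lower.

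Sense reads of small nuclear RNAs were few, at 861 in TX189 embryos and 7970.5 in hybrid embryos. The spliced-leader gene sls-2.8, which supplies the leader joined to downstream genes of operons, held 11.15% of them in TX189 embryos and 0.571% in hybrid embryos, 19.5-fold higher (13.5 to 28.1) within the column but at a log2 ratio of -0.43 per read of the whole library. F32B5.9 held 42.3% in TX189 embryos and 42.996% in hybrid embryos.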

How the data were processed

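Small RNA libraries of TX189(OMA-1::GFP) and hybrid 1-cell embryos were compared, 1 each, with 4 other small RNA libraries as context. The authors deposited 9 class tables, sense and antisense. Mature miRNA sense is in deposited RPM, with the same sum in every library. The other deposited columns are a signal: reads times 1 constant per library, whose origin is not given in the sources used here, and about 86% of values in each embryo library came out as whole reads (tolerance 0.001). For mature miRNAs 1 read was taken as 2 of the smallest steps. The poly(A) RPKM values deposited by the authors, for hybrid embryos, worms and sperm, served only for gene names and context. Mapping used BWA, per the submitters' processing notes; its version and the genome build are not given in the sources used here. Reads can fall in several classes.

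Repeated rows (555 exon, 531 intron) were dropped, and 8 columns per table that match no sample were not used. Embryo and sperm columns were matched to libraries by numbered name. The oocyte and both worm columns have no number and were matched as the only small RNA library of their kind, and the sperm, oocyte and worm bias sets rest on that match. Ratios carry exact (Clopper-Pearson) 95% intervals, which cover counting error only, since PCR reads are not independent molecules, and a library at 0 was given a floor of 3 reads. Python 3.11.15, pandas 2.3.3, numpy 2.4.6, SciPy 1.17.1 and matplotlib 3.10.9 were used. The comparison was also run on Poisson counts simulated from a shared profile, with the median set to 0. That setting is unlike these data, so it does not test the counts given here. Named loci were the 10 highest and 10 lowest ratios past 4-fold per column, the 10 most abundant miRNAs, the 5 most abundant loci of other columns, the miR-35, miR-51, let-7 and lin-4 families and list members past 4-fold. oma-1, skn-1 and par-2 were named after their values were seen. Members and lists were chosen with earlier results of these data known. Other scalings, minimums, folds and floors were tried.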

Additional observations from a re-analysis of the deposited data

How the results depend on the processing

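With 1 library per group no replicate could be left out. No paired analysis was possible because each group had 1 library. Scaled to all class reads, higher and lower counts were 821 and 344 for exon antisense and 0 and 37 for snoRNAs, and on that scale, added after seeing the data, 8 miRNAs were higher. With the median set to 0, 54 miRNAs were higher and 45 lower. A minimum of 5 reads gave 179 and 561 for 21U-RNAs, 1010 lower exon antisense genes and 21 higher snoRNAs. A minimum of 100 reads or 100 RPM gave 13 and 57 for miRNAs, 28 and 32 for 21U-RNAs, 301 and 282 for exon antisense, and 3 and 3 for snoRNAs. At 2-fold, exon antisense gave 1244 and 1973, and at 8-fold 227 and 243, with 14 higher miRNAs.

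Medians of sperm-biased and oocyte-biased 21U-RNAs were 5.28 and -4.99 scaled to all class reads, and 5.77 and -4.49 with the median set to 0. Those of exon antisense genes were 2.51 and -0.55 scaled to all class reads, and 1.46 for sperm bias at 4-fold. Log2 ratios past 4-fold that changed sign were -0.13 for miR-48-5p, -3.60 for C51F7.3, -2.25 for T19B4.8, -1.67 for R166.7 and -0.43 for sls-2.8 scaled to all class reads, and 0.049 for miR-36-3p with the median set to 0. Named ratios short of 4-fold also changed sign: scaled to all class reads, miR-35-3p stood at -1.28, miR-42-3p at -0.71, miR-58-3p at -1.60, miR-72-5p at -1.91, miR-228-5p at -2.05, miR-61-3p at -1.44, H16D19.4 at 0.37, F02C12.3 at 0.24, oma-1 at 0.55 and skn-1 at 0.54. With the median set to 0, miR-39-3p stood at 1.29, miR-37-3p at 1.40, miR-90-3p at 2.13, miR-54-5p at 2.16, miR-51-5p at 2.50, H16D19.4 at 0.11, oma-1 at 0.28, skn-1 at 0.27 and F32B5.9 at 0.047. List medians that changed sign were 0.54 for oocyte and 1-cell embryo genes and 0.13 for ribosomal protein genes scaled to all class reads, 0.28 with the median set to 0 and 0.12 at a minimum of 100 reads for oocyte and 1-cell embryo genes, 0.70 for the miR-35 family and 0.87 for the tissue miRNAs with the median set to 0, and for the tissue miRNAs 0.29 and 0.25 at minimums of 1 and 100 RPM. A constant shift per column is how the scalings are built; for the minimums the cause was not tested. With 200 reads per hairpin, added after seeing the data, 26 of 28 hairpins had a lower minor-arm share in TX189 embryos.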

Other observations

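Sense reads of exons, which include fragments of mRNAs, ranked differently between the libraries. Spearman's rho was 0.02 between TX189 and hybrid embryos over 3194 genes that share libraries and depth. Those genes reached the minimum in the mean of both libraries, which can itself lower this rho. F43E2.6 had 599 RPM of exon sense reads in TX189 embryos and 47989 in hybrid embryos. F40G9.6 had 6762 in TX189 embryos and 129153 in hybrid embryos, and Y92H12A.2 had 19729 and 2982.

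Intron antisense reads of ife-5, which encodes an eIF4E translation factor, stood at 21347 RPM in TX189 embryos and 67.3 in hybrid embryos, 317-fold higher (207 to 513). Of 649 loci of this column at the minimum, 324 were higher and 58 lower, with a median log2 ratio of 1.99. Y62F5A.9 alone held 96827.5 of 323425 reads of the column in TX189 embryos and 197845.5 of 312189 in hybrid embryos. Scaling to the whole library would move each log2 ratio of the column by -1.46. Genes whose antisense small RNAs were lower in TX189 embryos had a median of 3.06 RPKM in poly(A) RNA of hybrid embryos, those higher 0.802 RPKM, and all measured genes 22.96 RPKM. In high-purity CB4856 sperm the order turned, at 4.60 RPKM for those lower and 5.35 for those higher, with 16.3 for all measured genes. The samples hold no mRNA library of TX189 embryos.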
